A study of Mus musculus with 2 samples.

Results

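The genes described here are 9 arterial identity genes, *Gja5*, *Gja4*, *Bmx*, *Dkk2*, *Efnb2*, *Mecom*, *Fbln5*, *Eln* and *Sema3g*, which were taken as a list of names and not by a threshold on their values. They are 9 of the 32285 genes of the count matrices. Their transcripts were counted in endothelial cells (ECs) sorted from YUMMER1.7 tumors, a mouse melanoma line, by single-cell RNA-seq of 3′ transcript ends with unique molecular identifiers (UMIs). There was 1 control library and 1 Dnmt1iECKO library, each made from the pooled tumors of 3 female mice aged 8 to 10 weeks. The Dnmt1iECKO mice are labelled Cdh5CreERT2;Dnmt1fl/fl;ZsGreenlsl/lsl, in which tamoxifen activates a Cre recombinase driven by the *Cdh5* promoter and deletes *Dnmt1*, the maintenance DNA methyltransferase, in ECs of every vessel type. The label of the controls gives C57BL/6 only, whereas the study's methods describe controls that carry the endothelial Cre and the ZsGreen reporter, so the genotype of the control mice is not settled. The labels place the tumors under the skin of the shoulder, whereas the methods describe lung tumors after tail vein injection. They also give melanoma cells as the cell type, although the sorted cells were CD31+CD45-.

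Arteries differ from veins and capillaries in a set of genes that Notch signaling, shear stress and SOXF factors are known to maintain. *Gja5* and *Gja4* encode connexins, which couple neighboring arterial ECs through gap junctions. *Efnb2* encodes an ephrin that marks arteries and binds the Eph receptor of veins, *Mecom* a zinc-finger transcription factor with roles in arterial specification, *Bmx* a TEC-family kinase of arterial endothelium and the endocardium, *Dkk2* a secreted Wnt modulator, *Sema3g* a secreted semaphorin, and *Fbln5* and *Eln* proteins of the elastic fibers that let arteries recoil.

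The control library held 9301 cells and 123830489 UMIs, and the Dnmt1iECKO library 9522 cells and 141433493 UMIs. Cells were taken as endothelial when they had at least 1 UMI of *Cdh5* or *Pecam1*, the adhesion molecules of the endothelial junction, and none of *Ptprc*, which encodes CD45. This left 5529 control cells with a median of 10147 UMIs and 2410 Dnmt1iECKO cells with a median of 10801. Among them, 17.8% of the control and 21.0% of the Dnmt1iECKO cells had at least 3 markers of fibroblasts, mural cells, epithelium or platelets, so values are also given with those cells left out ("without other lineages"). The libraries shared 29 cell barcodes. The targeted gene, *Dnmt1*, was at 51.5 UMIs per 1000000 UMIs (CPM) in control and 37.2 in Dnmt1iECKO ECs, and at 52.1 and 28.5 without other lineages. These 3′ counts may lie outside the deleted exons, which the sources used here do not place, so the level of *Dnmt1* is no check of the deletion. With 1 library per condition there was no replicate and no test, and every interval in brackets is a 95% interval of counting error only.

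On GRCm38, the build of the counts, *Gja5* lies at chr3:96904693-97077416, *Dkk2* at chr3:132085292-132180304 and *Mecom* at chr3:29951296-30548008. *Gja4* lies at chr4:127311421-127314039, *Eln* at chr5:134702593-134747323, *Efnb2* at chr8:8617434-8661242, *Fbln5* at chr12:101746565-101819055, *Sema3g* at chr14:31217860-31230352 and *Bmx* at chrX:164192842-164258193. Exons of *Gja5*, *Mecom* and *Eln* overlapped exons of a gene on the opposite strand, and no member had an exon overlap on its own strand.

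Because DNMT1 copies methylation at CpG dinucleotides, the promoters of 4 members are shown with each CG in capitals: the genes that were later used to group the cells, *Gja5*, *Bmx* and *Dkk2*, and *Efnb2*, the member with the most CG. Each line gives the 250 bases before the transcription start on the gene's own strand, from the RefSeq promoter table of GRCm38.p6, which held 8 of the 9 members. DNA methylation was not measured in these libraries.
*Gja5* (chr3:97032152-97032401, plus strand): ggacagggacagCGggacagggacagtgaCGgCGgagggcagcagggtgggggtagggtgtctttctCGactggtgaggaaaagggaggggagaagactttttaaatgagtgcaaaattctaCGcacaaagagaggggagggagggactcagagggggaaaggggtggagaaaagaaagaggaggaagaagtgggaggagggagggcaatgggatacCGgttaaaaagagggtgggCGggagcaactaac
*Bmx* (chrX:164258194-164258443, minus strand): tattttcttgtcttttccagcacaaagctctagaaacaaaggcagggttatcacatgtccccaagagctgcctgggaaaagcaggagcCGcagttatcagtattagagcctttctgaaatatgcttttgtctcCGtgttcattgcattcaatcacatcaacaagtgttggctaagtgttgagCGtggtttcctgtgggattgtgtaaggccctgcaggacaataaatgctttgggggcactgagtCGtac
*Dkk2* (chr3:132085042-132085291, plus strand): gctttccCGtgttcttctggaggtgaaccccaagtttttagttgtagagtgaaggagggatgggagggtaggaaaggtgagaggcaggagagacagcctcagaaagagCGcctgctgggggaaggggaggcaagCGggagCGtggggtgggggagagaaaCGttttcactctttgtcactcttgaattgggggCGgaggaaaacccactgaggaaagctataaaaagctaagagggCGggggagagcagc
*Efnb2* (chr8:8661243-8661492, minus strand): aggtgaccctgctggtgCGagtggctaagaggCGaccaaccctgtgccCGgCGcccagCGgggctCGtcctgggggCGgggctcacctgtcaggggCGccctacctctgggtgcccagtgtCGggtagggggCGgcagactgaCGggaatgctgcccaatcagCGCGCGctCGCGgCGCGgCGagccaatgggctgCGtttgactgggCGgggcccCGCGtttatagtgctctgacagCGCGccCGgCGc
In the full windows of 300 bases, which include the 50 bases after the start, *Bmx* held 4 CG, *Gja5* 7, *Dkk2* 11 and *Efnb2* 35, beside a median of 7 over all 32851 promoters of the table. *Bmx* thus had the fewest of these 4 and *Efnb2* more than 93.0% of all promoters. The other windows held 8 CG for *Sema3g*, 16 for *Gja4*, 19 and 9 for the 2 starts of *Mecom* and 24 and 8 for those of *Fbln5*. The core of the binding motif of RBPJ, the DNA-binding partner of Notch (TGGGAA, either strand), was found for *Bmx*, *Fbln5* and *Sema3g*, 3 of 8 members, and in 25.6% of all promoters. A SOX core (AACAAT, either strand) was found for *Fbln5*, and in 10.7% of all promoters. An ETS core (AGGAAG, either strand) was found for *Gja5*, *Fbln5* and *Sema3g*, and in 35.4% of all promoters.

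The first question was which cells carry these transcripts. Clustering of the gated cells on genes other than the members gave 21 clusters, of which 13 were endothelial. The other 8 were fibroblast-like, mural-like, epithelial-like or platelet-like, apart from an unnamed *Hmga2*-led cluster with little *Cdh5*. Some of the 8 had much *Cdh5*, at 1426 CPM in the platelet-like and 1121 in the *Akap5*-led epithelial-like cluster. The *Kcnq5*-led and *Fabp4*-led mural-like clusters had 1107 and 806 CPM. Their UMIs are nevertheless counted outside the endothelial clusters below. Conversely, the *Inmt*-led cluster, counted as endothelial, had other-lineage markers in 35.3% of its cells. One endothelial cluster was artery-like. It held 49 control and 50 Dnmt1iECKO cells and its name rests on *Jag1*, *Hey1*, *Cxcl12*, *Ltbp4*, *Hey2* and *Pcsk5*, 6 of 12 arterial markers that are not members. None of these 6 was among its 10 leading genes, which include the members *Bmx* and *Mecom* beside *Thsd7a*, *Cytl1*, *Stk32a* and *Esr2*. The other 6 markers were split, against ECs with none of *Gja5*, *Bmx* and *Dkk2*. *Nebl* (5.81 and 8.30 CPM against 37.3 and 61.3) and *Clu* (151 and 207 against 257 and 288) were lower in the artery-like cells. *Vegfc* (82.7 and 84.6 against 88.6 and 118) was lower too, though by little in control, and no interval is given for these levels. *Stmn2* and *Dll4* were higher in the artery-like cells. *Sox17* was lower there in control only (132 against 155 CPM), again without an interval. Of the 99 artery-like cells, 0 carried 3 or more markers of another lineage, which allows a share of up to 3.03% (3 counts of the total).

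**Figure D1:**
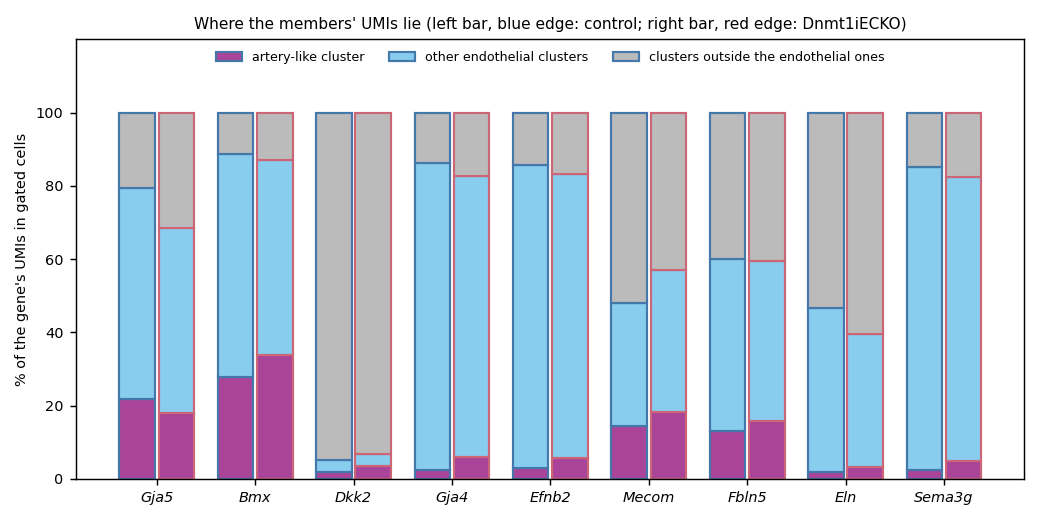
Percent of each member's UMIs in the gated cells that lie in the artery-like cluster, in the other 12 endothelial clusters and in the remaining clusters, with 1 bar per library. Nearly all *Dkk2* UMIs lie in the remaining clusters (94.8% in control and 93.3% in Dnmt1iECKO), whereas *Bmx* has the largest artery-like share (27.7% and 33.7%).

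The artery-like cells were few, 0.886% (0.656 to 1.17) of control and 2.07% (1.54 to 2.73) of Dnmt1iECKO ECs, but held a large part of some members' UMIs. For the kinase gene *Bmx* that part was 27.7% in control and 33.7% in Dnmt1iECKO, and for the connexin gene *Gja5* it was 21.7% and 18.0%. *Mecom* followed with 14.5% and 18.2% and *Fbln5* with 13.2% and 15.7%. The remaining members lay elsewhere, as the plot of UMIs by cluster shows. *Gja4*, *Efnb2* and *Sema3g* had between 2.33% and 5.91% of their UMIs in the artery-like cells and between 76.9% and 83.7% in other endothelial clusters. *Dkk2* had 94.8% and 93.3% of its UMIs outside the endothelial clusters, and *Eln* 53.4% and 60.6%.

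Inside the gate, the unnamed *Hmga2*-led cluster held 85.4% of the *Dkk2* UMIs in control and 79.0% in Dnmt1iECKO, and the *Mgp*-led fibroblast-like cluster 8.87% and 4.44%. That fibroblast-like cluster held 36.6% and 46.1% of the *Eln* UMIs, and the *Sftpc*-led epithelial-like cluster 29.8% and 25.2% of the *Mecom* UMIs. The members were also measured in cells outside the endothelial gate. Fibroblasts, taken as cells with at least 3 fibroblast markers, no other such lineage and neither *Cdh5* nor *Ptprc*, had *Dkk2* at 91.7 CPM in control and 82.9 in Dnmt1iECKO, above the 29.0 and 54.8 CPM of the artery-like cluster. The *Hmga2*-led cluster had 158 and 112 CPM. These are pooled levels. With cells thinned to an equal depth, *Dkk2* was detected in 13 of 254 control and 24 of 382 Dnmt1iECKO fibroblasts. In the artery-like cluster it was then detected in 3 of 48 and 2 of 50 cells. The intervals of these shares overlap in both libraries, so the higher fibroblast CPM was not matched by a resolved difference in detection. *Eln* was at 345 and 261 CPM in fibroblasts and at 364 and 539 CPM in the few mural cells (26 and 22 cells), which build the elastic layer of vessel walls. *Mecom* was at 900.0 and 904 CPM in epithelial cells. *Gja5*, *Gja4*, *Efnb2* and *Sema3g* stayed at 20.6 CPM or less in both fibroblasts and epithelium of either library. In immune cells (at least 2 UMIs of *Ptprc* and none of *Cdh5*) every member was at 6.63 CPM or less, and *Gja4*, *Mecom*, *Fbln5* and *Sema3g* were under 1 CPM.

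The cells were then grouped by how many of *Gja5*, *Bmx* and *Dkk2* they contained. In control ECs, 4854 cells had none, 550 had exactly 1, 119 had exactly 2 and 6 had all 3. In Dnmt1iECKO ECs the same groups held 1966, 358, 76 and 10 cells. Cells with at least 2 were 125 of 5529 in control, 2.26% (1.89 to 2.69), and 86 of 2410 in Dnmt1iECKO, 3.57% (2.86 to 4.39), a log2 ratio of 0.66 (0.25 to 1.07). Most of them paired *Gja5* with *Bmx*, 108 cells in control and 67 in Dnmt1iECKO. *Dkk2* on its own instead marked 87 and 79 cells with median depths of 61398 and 76098 UMIs, of which 63 and 58 had other-lineage markers.

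These shares depended on depth. Cells with at least 2 had median depths of 14922 and 14460 UMIs, against 9715 and 10051 in cells with none. When every cell was thinned to 2000 UMIs, cells with at least 2 were 18 of 5164 in control, 0.349% (0.207 to 0.550), and 10 of 2233 in Dnmt1iECKO, 0.448% (0.215 to 0.822), and these intervals overlap. The thinned share with at least 1 was 3.89% (3.38 to 4.46) in control and 6.72% (5.71 to 7.84) in Dnmt1iECKO, beside 1.80% and 1.92% in immune cells. Nearly all of the immune detection was of *Bmx*, a kinase gene also known in myeloid cells, which was found in 16 of 995 and 69 of 3853 immune cells, whereas *Gja5* was found in 0 and 3, so the immune share is not used here as a background. At full depth 1 of 1067 control immune cells and 0 of 4025 Dnmt1iECKO immune cells had at least 2, and the count of 0 allows a share of up to 0.0745% by the same limit of 3 counts. The median depth of these immune cells was close to that of the ECs, at 10327 and 9758 UMIs in those without markers of another lineage.

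*Gja5*, *Bmx* and *Dkk2* fix the groups, so that only the other 6 members carry information between them. All 6 were higher in cells with at least 2 than in cells with none, in both libraries. Of all genes, 47.4% in control and 45.2% in Dnmt1iECKO were higher in the cells with at least 2. The median log2 ratio of the 6 was 1.11 in control and 1.48 in Dnmt1iECKO, against −0.025 and −0.037 over all genes. Of the 6, 5 were past 1.5-fold in each library, where 11.0% of 12693 genes in control and 7.39% of 11576 genes in Dnmt1iECKO were. None of the 6 was 1.5-fold lower, where 14.3% and 12.8% of genes were.

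*Mecom*, the transcription factor gene, had the largest ratio. In control it was at 62.9 CPM in cells with none and 454 in cells with at least 2, a log2 ratio of 2.85 (2.76 to 2.95), and in Dnmt1iECKO at 80.8 and 495, a ratio of 2.62 (2.50 to 2.73). *Fbln5* came next, at 24.9 and 108 CPM in control and 32.2 and 146 in Dnmt1iECKO, with log2 ratios of 2.13 (1.94 to 2.31) and 2.18 (1.98 to 2.38). Both genes were also the ones most affected by cells of other lineages, which hold much of their RNA in the group with none. Without other lineages the ratio of *Mecom* was 4.14 (4.02 to 4.27) and 3.79 (3.65 to 3.93), and that of *Fbln5* was 3.13 (2.92 to 3.34) and 3.13 (2.89 to 3.36).

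The members that capillaries share differed less. *Efnb2* went from 205 CPM in cells with none to 482 in control and from 168 to 455 in Dnmt1iECKO, log2 ratios of 1.23 (1.15 to 1.31) and 1.43 (1.32 to 1.54). The connexin gene *Gja4* was at 190 and 376 CPM in control and 167 and 477 in Dnmt1iECKO, ratios of 0.99 (0.89 to 1.08) and 1.52 (1.41 to 1.62). *Sema3g* gave ratios of 0.99 (0.87 to 1.10) and 1.25 (1.11 to 1.39). The elastin gene *Eln* was the exception in size, at 0.54 (0.39 to 0.69) and 0.27 (0.08 to 0.45), and its ratio was 1.04 and 0.90 without other lineages. The endothelial gene *Cdh5* was not higher in these cells, with ratios of −0.44 (−0.49 to −0.38) and −0.04 (−0.10 to 0.02).

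**Figure D2:**
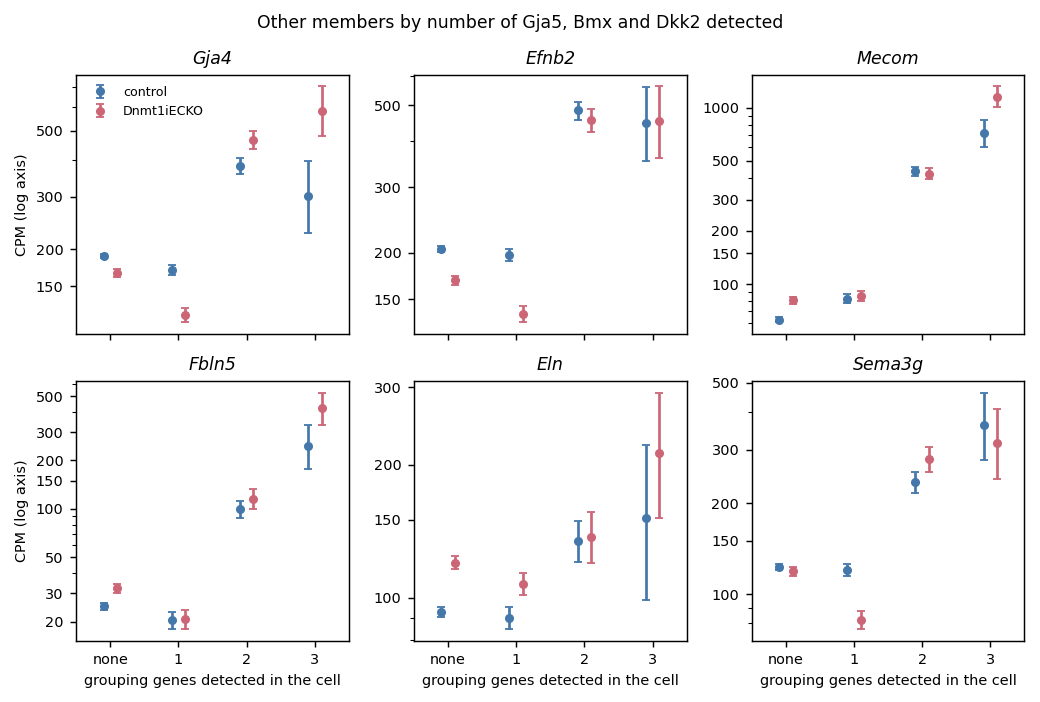
CPM (log axis) of the 6 members that did not define the groups, in ECs with none, 1, 2 or 3 of *Gja5*, *Bmx* and *Dkk2*, by library, with exact Poisson 95% intervals as bars. In every panel, at full depth and with other lineages kept, the cells with 2 lie above the cells with none or 1. The cells with exactly 1 are no higher than those with none except for *Mecom*.

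At full depth and with cells of other lineages kept, the cells with exactly 1 grouping gene resembled those with none. *Mecom* was at 82.8 CPM in control cells with exactly 1, at 437 with exactly 2 and at 717 with all 3, and in Dnmt1iECKO at 85.6, 423 and 1153. *Fbln5* was at 20.4, 99.5 and 245 CPM in control and at 20.6, 115 and 421 in Dnmt1iECKO. The cells with exactly 1 were less endothelial in content. They had *Cdh5* at 722 CPM in control and 550 in Dnmt1iECKO, against 1311 and 1170 in cells with none, and carried other-lineage markers in 33.5% and 36.3% of cells, against 15.9% and 18.2%. Without other lineages, each of the other 6 members was higher in cells with exactly 1 than in cells with none, in both libraries. All 3 were found in 6 control and 10 Dnmt1iECKO cells only, so that these levels rest on few cells.

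With other lineages kept, the order was also different after thinning to 2000 UMIs, when detection no longer follows depth. *Mecom* was then at 60.1 CPM in control cells with none, at 320 with exactly 1 and at 1083 with exactly 2, and in Dnmt1iECKO at 86.7, 371 and 1050. *Efnb2* was at 242, 533 and 556 CPM in control and at 235, 418 and 850 in Dnmt1iECKO. *Gja4* was at 207, 393 and 528 CPM in control and at 193, 357 and 1450 in Dnmt1iECKO. At equal depth, cells with a single grouping gene thus already had more of these members than cells with none, and the cells with 2 were only 18 and 10.

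Detection of at least 2 grouping genes and membership of the artery-like cluster overlapped in part. Of the 211 cells with at least 2, 60 lay in the artery-like cluster, 25.6% of those in control and 32.6% of those in Dnmt1iECKO. Conversely, 32 of the 49 control and 28 of the 50 Dnmt1iECKO artery-like cells had at least 2, and 4 and 2 had none. Another 72 and 43 cells with at least 2 sat in other endothelial clusters, with 26 and 10 in the *Bmp6*-led general capillary-like cluster and 15 and 10 in the *Ubd*-led IFNg-activated-like cluster. The remaining 21 and 15 were in clusters of other lineages and had median depths of 22752 and 35549 UMIs.

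Inside and outside the artery-like cluster, cells with at least 2 differed more in *Mecom*, *Fbln5* and *Eln* than in *Gja4*, *Efnb2* and *Sema3g*. *Mecom* was at 1231 CPM inside and 236 in other endothelial clusters in control, and at 1238 and 208 in Dnmt1iECKO. *Fbln5* was at 407 inside and 12.0 outside in control and at 418 and 11.9 in Dnmt1iECKO, where cells with none in the same outside clusters had 17.9 and 25.9. *Eln* was at 211 and 68.7 CPM in control and 215 and 75.0 in Dnmt1iECKO. *Efnb2* was at 655 and 622 CPM in control and at 633 and 504 in Dnmt1iECKO, and *Gja4* at 553 and 459 and at 640.4 and 514. *Sema3g* was at 322 and 300 CPM and at 383 and 305. Artery-like cells with none or 1 of the grouping genes still had *Mecom* at 1365 and 1104 CPM and *Fbln5* at 277 and 212.

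Across the 13 endothelial clusters, each of *Gja5*, *Bmx*, *Dkk2*, *Gja4*, *Efnb2*, *Mecom*, *Fbln5* and *Sema3g* had its highest level in the artery-like cluster of both libraries. *Eln* was highest there in Dnmt1iECKO and second to the vein-like cluster in control. The members were left out of the genes used for clustering, so their levels did not place the cells directly. The distance to the next cluster sorted the members into distinct patterns, which the plot of levels by cluster shows.

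**Figure D3:**
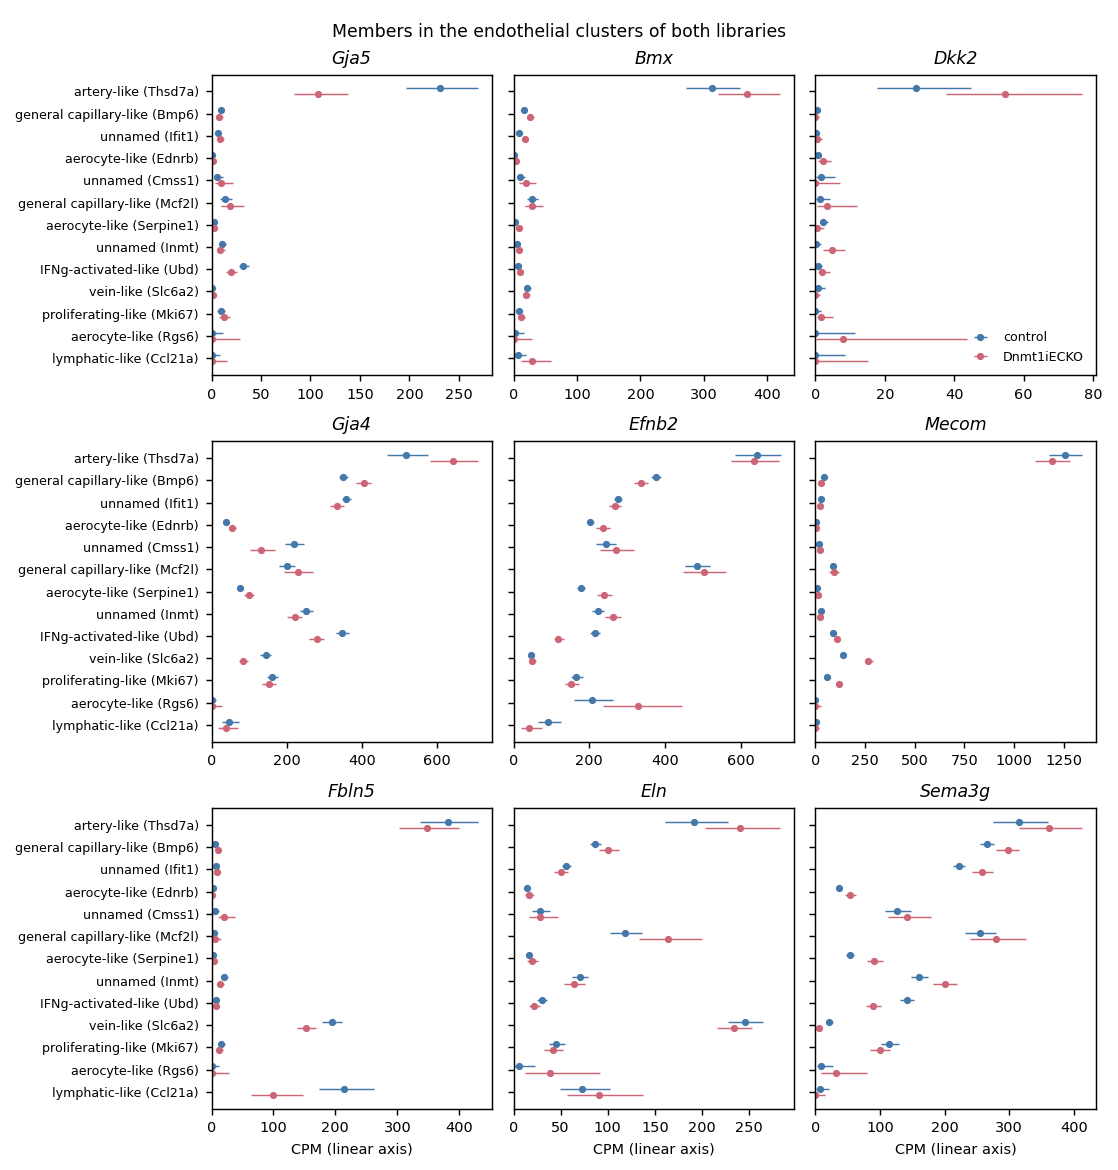
CPM (linear axes) of the 9 members in the 13 endothelial clusters, named by markers and leading gene, in control and Dnmt1iECKO with exact Poisson 95% intervals as bars. *Gja5*, *Bmx*, *Dkk2* and *Mecom* stand out in the artery-like cluster, *Gja4*, *Efnb2* and *Sema3g* extend into the general capillary-like clusters, and *Fbln5* and *Eln* into the vein-like cluster. *Eln* also extends into the general capillary-like clusters.

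*Bmx*, *Dkk2*, *Mecom* and *Gja5* had the largest ratios to the next cluster, at least 4.47 in both libraries. *Bmx* was at 312 CPM (272 to 357) there in control and at 368 (322 to 420) in Dnmt1iECKO, and at 29.1 and 29.9 in the next cluster, the *Mcf2l*-led general capillary-like one. *Mecom* was at 1257 and 1193 CPM, 9.17 and 4.47 times its level in the vein-like cluster, which came next with 137 and 267. *Gja5* was at 231 CPM in control and 108 in Dnmt1iECKO, with the *Ubd*-led IFNg-activated-like cluster next at 32.2 and 19.5. *Dkk2* was at 29.0 CPM from 20 UMIs and 54.8 CPM from 33 UMIs, 13.4 and 7.0 times the next cluster, which rested on 14 UMIs in control and 1 in Dnmt1iECKO, and 65.0% of the control UMIs came from a single cell.

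*Gja4*, *Efnb2* and *Sema3g* formed a pattern shared with capillaries. The artery-like level of *Efnb2* was 643 and 636 CPM, with the *Mcf2l*-led general capillary-like cluster at 484 and 503, so that the log2 distance was only 0.41 (0.24 to 0.58) and 0.34 (0.12 to 0.56). *Gja4* was at 518 and 642 CPM, with the unnamed *Ifit1*-led cluster at 359 in control and the *Bmp6*-led general capillary-like cluster at 404 in Dnmt1iECKO. *Sema3g* was at 315 and 362 CPM and at 265 and 298 in that *Bmp6*-led cluster, a distance of 0.25 (0.04 to 0.45) and 0.28 (0.07 to 0.49). Aerocytes, the gas-exchange capillary cells of the lung, separated the 3 genes, since the *Ednrb*-led aerocyte-like cluster had *Efnb2* at 203 and 236 CPM but *Gja4* at 37.2 and 55.3 and *Sema3g* at 35.8 and 53.2.

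*Fbln5* and *Eln*, the genes of elastic fibers, were shared with veins. *Fbln5* was at 382 and 349 CPM in the artery-like cluster, at 194 and 153 in the vein-like cluster and at 214 and 99.2 in the lymphatic-like cluster, and at 20.9 or less in all other endothelial clusters. *Eln* was at 192 CPM (160 to 227) in artery-like and 246 (227 to 265) in vein-like cells of the control, and at 241 (203 to 283) and 234 (216 to 253) in Dnmt1iECKO, where the clusters do not differ beyond counting error. General capillary-like clusters had *Eln* as well, at 119 and 164 CPM in the *Mcf2l*-led and 87.0 and 101 in the *Bmp6*-led one. The vein-like cluster had little *Efnb2* (46.3 and 49.3 CPM) and *Sema3g* (21.5 and 6.16 CPM), and 0 and 1.54 CPM of *Gja5*.

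Pearson correlations of log2(CPM + 10) over the 26 profiles of 13 clusters in 2 libraries followed this grouping in part. They were 0.82 for *Gja5* with *Bmx*, 0.82 for *Gja5* with *Mecom* and 0.80 for *Bmx* with *Mecom*. They were 0.81 for *Efnb2* with *Sema3g* and 0.79 for *Gja4* with *Sema3g*, 0.72 for *Fbln5* with *Eln*, and −0.26 for *Efnb2* with *Fbln5*. Other pairs crossed the groups. *Gja4* gave 0.37 with *Efnb2* but 0.67 with *Gja5*, 0.67 with *Mecom* and 0.56 with *Bmx*, and *Bmx* gave 0.70 with both *Fbln5* and *Eln*. These profiles share libraries and differ in depth, and the values are descriptions.

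Single artery-like cells carried many members at once. After thinning to 2000 UMIs, the median artery-like cell had 4 of the 9 members in both libraries, against 1 in other ECs without other lineages. At least 5 members were found in 39.6% of control and 28.0% of Dnmt1iECKO artery-like cells, and in 0.431% and 0.770% of the other ECs. At full depth the median was 7 members against 3. *Efnb2* and *Mecom* were the most widely detected, in 47 and 46 of 49 control cells and in 49 and 49 of 50 Dnmt1iECKO cells, and *Dkk2* the least, in 6 and 9 cells.

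The comparison of the libraries asks how loss of endothelial *Dnmt1* relates to these genes. Over all ECs, 5 of the 9 members were higher in Dnmt1iECKO, where 50.4% of all 14093 genes with at least 100 UMIs were. The median log2 ratio of the members was 0.32, against 0.0026 over these genes. Past 1.5-fold were 2 members upward, where 9.13% of genes were, and 0 downward, where 2.26% were. *Bmx* was at 10.5 CPM (9.79 to 11.3) in control and 16.9 (15.7 to 18.3) in Dnmt1iECKO, a log2 ratio of 0.69 (0.53 to 0.84). *Dkk2* was at 15.0 and 24.3 CPM, a ratio of 0.70 (0.57 to 0.82), and its UMIs lie almost wholly outside the endothelial clusters. *Mecom* was at 81.3 and 102, *Fbln5* at 27.2 and 34.3 and *Eln* at 93.9 and 118 CPM, with ratios of 0.32 to 0.34. *Gja5* was at 9.94 and 9.30 CPM, a ratio of −0.10 (−0.28 to 0.09). The members shared with capillaries were lower, with *Efnb2* at 214 and 173 CPM (−0.31), *Gja4* at 193 and 168 (−0.20) and *Sema3g* at 127 and 116 (−0.12), but *Cdh5* and *Pecam1* were lower by a similar amount (−0.26 and −0.29).

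Without other lineages the comparison looked different. Of the 9 members, 8 were higher in Dnmt1iECKO, where 46.9% of all 12325 genes were. The median of the members was 0.33, against −0.013 over these genes, and 4 members were past 1.5-fold, where 5.43% of genes were. None was 1.5-fold lower, where 2.31% of genes were. *Dkk2* was at 1.45 CPM (1.13 to 1.83) in control and 5.06 (4.17 to 6.09) in Dnmt1iECKO, a ratio of 1.80 (1.36 to 2.25). This set still held cells of clusters outside the endothelial ones, since 64.8% of the *Hmga2*-led cells had other-lineage markers. The endothelial clusters held 5.16% of 1105 gated *Dkk2* UMIs in control and 6.66% of 946 in Dnmt1iECKO, fewer than the 72 and 112 counted here. This ratio is therefore not of endothelial clusters alone. *Bmx* was at 13.2 and 25.3 CPM, a ratio of 0.94 (0.77 to 1.10), *Mecom* at 60.0 and 112, a ratio of 0.90 (0.82 to 0.98), and *Fbln5* at 22.8 and 36.2, a ratio of 0.67 (0.53 to 0.80). *Eln* kept a ratio of 0.33. *Gja4* (0.037, −0.011 to 0.084) and *Sema3g* (0.075, 0.016 to 0.134) now lay slightly above 0, the opposite side of their values over all ECs, and *Efnb2* stayed at −0.12 (−0.16 to −0.07).

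The share of cells in which a member was detected, again without other lineages and with each cell thinned to 2000 UMIs, followed these levels. *Bmx* was detected in 2.44% (2.00 to 2.95) of control and 4.20% (3.30 to 5.25) of Dnmt1iECKO ECs, beside 1.61% and 1.79% of immune cells. In fibroblasts outside the gate it was detected in 0 of 254 control cells, which allows a share of up to 1.18%, and in 1 of 382 Dnmt1iECKO cells, with median depths of 19964 and 20565 UMIs before thinning. *Mecom* was detected in 6.61% (5.88 to 7.40) and 10.3% (8.90 to 11.8) of ECs, beside 0.302% of control immune cells and 0 of 3853 Dnmt1iECKO immune cells, which allows a share of up to 0.0779%. *Fbln5* was detected in 2.80% (2.32 to 3.34) and 4.49% (3.56 to 5.57) of ECs. *Eln* was detected in 10.1% (9.18 to 11.0) and 12.3% (10.8 to 13.9), with overlapping intervals. *Dkk2* was detected in 0.142% (0.0522 to 0.309) and 0.863% (0.484 to 1.42), from 6 and 15 cells. *Efnb2* (35.6% and 33.5%), *Gja4* (29.6% and 29.8%) and *Sema3g* (23.2% and 23.6%) were found in similar shares of both libraries, with intervals that overlap. *Gja5* was found in 1.63% and 2.07%, with overlapping intervals as well.

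**Figure D4:**
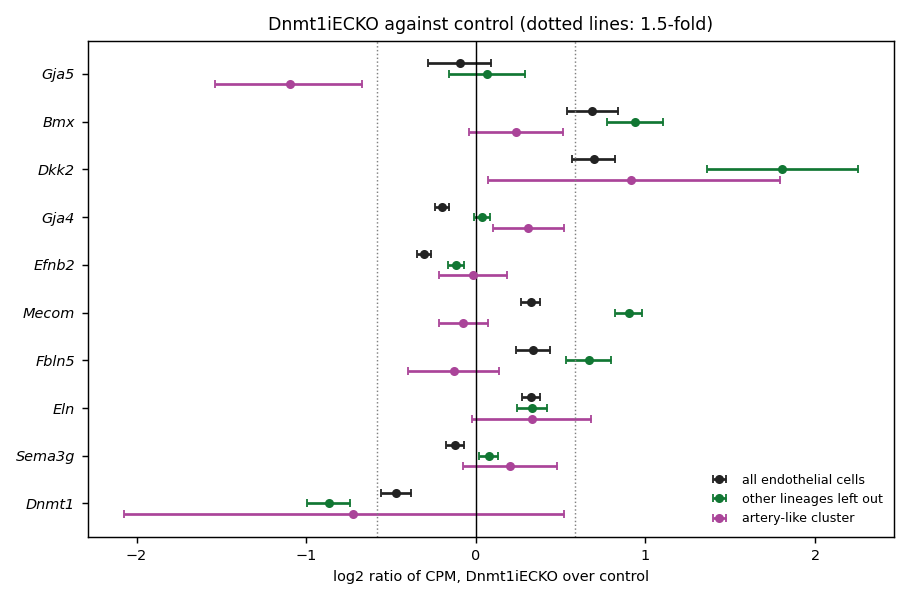
Log2 ratio of CPM in Dnmt1iECKO to control for the 9 members and *Dnmt1*, with exact conditional 95% intervals, over all ECs, over ECs without other lineages and in the artery-like cluster. *Bmx*, *Mecom* and *Fbln5* are higher in Dnmt1iECKO over ECs but have intervals that include 0 in the artery-like cluster, and *Gja5* has an interval below 0 in that cluster but not in the other sets.

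The sizes of several clusters moved with these values, and their part in the ratios over all ECs was not tested beyond the values given here. The artery-like cluster took a 2.34 times larger share of ECs in Dnmt1iECKO than in control, and the vein-like cluster a 2.24 times larger one (3.07% and 6.89% of ECs). The *Mgp*-led fibroblast-like cluster, with much of the *Eln*, took a 2.13 times larger share (1.99% and 4.23%) and the *Hmga2*-led cluster, with most of the *Dkk2*, a 1.73 times larger one (1.84% and 3.20%). The *Ednrb*-led aerocyte-like cluster took 13.0% and 9.25%. With the artery-like and vein-like clusters left out as well as other lineages, the ratios were 0.86 for *Bmx*, 0.58 for *Mecom*, 0.53 for *Fbln5*, 0.05 for *Eln* and 1.92 for *Dkk2*. With only other lineages left out, they were 0.94, 0.90, 0.67, 0.33 and 1.80. Both sets still held cells of clusters outside the endothelial ones, so neither *Dkk2* ratio is of endothelial clusters alone. With 1 library per condition, the share of the cells and the level per cell cannot be assigned to the genotype, since mouse pool and library cannot be told apart from it.

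Within the artery-like cluster, the direction of several members depended on how cells were summarized. Of the 9, 5 were higher and 4 lower in Dnmt1iECKO, where 43.6% of 7125 genes were higher. With the mean of CPM over single cells, a setting chosen after seeing the data, 8 were higher and only *Gja5* lower, since *Efnb2* (0.11), *Mecom* (0.035) and *Fbln5* (0.067) then lay slightly above 0. *Dkk2* was 1.5-fold higher (29.0 and 54.8 CPM), where 9.52% of 7125 genes were, and *Gja5* was 1.5-fold lower, where 15.8% were. *Gja5* was at 231 CPM (196 to 270) in control and 108 (83.3 to 137) in Dnmt1iECKO, a log2 ratio of −1.10 (−1.54 to −0.67), while median depths were close (10129 and 9836 UMIs). It was detected in 34 of 49 and 29 of 50 cells at full depth, and in 33.3% (20.4 to 48.4) and 18.0% (8.58 to 31.4) of cells thinned to 2000 UMIs, shares whose intervals overlap. The highest control cell held 17.0% of the control UMIs, and without the highest cell of each library the levels were 197 and 100.0 CPM. For *Dkk2*, leaving out these cells gave 10.4 and 40.5 CPM. In cells thinned to 2000 UMIs, *Dkk2* was detected in 3 of 48 control and 2 of 50 Dnmt1iECKO cells, which does not follow its higher CPM. *Bmx* (0.24, −0.04 to 0.52), *Efnb2* (−0.02), *Mecom* (−0.08), *Fbln5* (−0.13), *Eln* (0.33, −0.02 to 0.68) and *Sema3g* (0.20) had intervals that include 0. *Gja4* was at 518 and 642 CPM, a ratio of 0.31 (0.10 to 0.52).

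In cells with at least 2 grouping genes, 5 of the other 6 members were higher in Dnmt1iECKO, where 45.9% of 11002 genes were. The median of the 6 members was 0.17, against −0.038 over all genes. None was past 1.5-fold, where 9.64% of 11002 genes were higher and 10.5% lower by that much. *Fbln5* had the largest ratio, 0.43 (0.18 to 0.67), and *Gja4* the next, 0.34 (0.21 to 0.47). *Mecom* was at 454 and 495 CPM, a ratio of 0.13 (0.00 to 0.25). *Efnb2* was at 482 and 455 CPM and its interval includes 0 (−0.21 to 0.04).

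The 9 lists of genes related to the members, 92 entries in all, of which 84 had at least 20 UMIs in the comparison, were read in the comparison of cells with at least 2 against none. A gene was counted when it was past 1.5-fold in the same direction in both libraries, which 4.46% of 14493 genes were upward and 9.32% downward. Cells of other lineages were kept in this comparison. Other artery-enriched genes had the largest count, 9 of 15 higher and 0 lower, with median log2 ratios of 0.76 in control and 0.91 in Dnmt1iECKO. *Igfbp3*, 1 of the 9 and named after its values were seen, was at 0 and 1.66 CPM in the artery-like cluster. *Cdh13*, an atypical cadherin, was at 22.9 CPM in cells with none and 214 in cells with at least 2 in control, and at 72.7 and 257 in Dnmt1iECKO. *Plac8* and the protease gene *Pcsk5* followed with log2 ratios of 2.13 and 1.68 and of 1.80 and 2.10. *Clu* (−0.79 and −0.45) and *Crip1* (−0.64 and −0.12) were the lowest when ranked by the larger of the library ratios, and *Mgp*, named after its values were seen, gave 0.55 and −0.85.

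Notch and artery transcription genes were higher in 6 of 17 cases and lower in 0, with medians of 0.35 and 0.75. *Hey2*, a Notch target of arteries, was at 1.49 and 6.51 CPM in control and at 2.61 and 11.4 in Dnmt1iECKO, ratios of 2.12 and 2.13. *Prdm16* gave 1.95 and 1.39 and *Foxc2*, at under 3 CPM, 3.08 and 1.90. The ligand gene *Dll1* (−0.38 and −0.16) and *Hes1* (−0.17 and −0.12) were the lowest when ranked by the larger of the library ratios. *Foxc1*, named after its values were seen, gave 0.74 in control and −1.89 in Dnmt1iECKO. Of the guidance and chemokine cues, 3 of 11 were higher and 2 lower, with medians of −0.15 and −0.27. *Cxcl12*, the chemokine of arterial ECs, was at 155 and 860 CPM in control and 183 and 1197 in Dnmt1iECKO, and its receptor gene *Cxcr4* gave ratios of 1.92 and 1.79 and *Unc5b* of 0.76 and 0.90. In the artery-like cluster *Unc5b* was at 78.4 and 28.2 CPM, against 46.0 and 39.5 in cells with none. *Sema3c* (−0.98 and −0.94), a marker of general capillaries, and *Plxna1* (−1.07 and −0.90) were lower.

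The partners of the members behaved unequally. Among 15 genes of the elastic fiber, 4 were higher and 2 lower, with medians of 0.43 and −0.18. *Ltbp4*, which binds fibulins, gave 2.00 and 2.19, the fibrillin gene *Fbn1* 1.60 and 1.60, and *Fbln2* 1.19 and 1.59, whereas *Mfap5* (−0.95 and −1.26) and *Mfap2* (−0.61 and −0.84) were lower. Of 6 other ephrins and Eph receptors with enough UMIs, *Efna1* (0.70 and 1.25) and *Epha4* (0.72 and 0.61) were higher and 0 lower, and the vein receptor gene *Ephb4*, the partner of *Efnb2*, was at 101 and 83.5 CPM in control and at 103 and 99.1 in Dnmt1iECKO. No other connexin or gap junction gene of the 3 with enough UMIs passed in either direction, with *Gja1* at 0.55 and 0.07, *Gjc1* at 0.01 and 0.17 and *Panx1* at 0.72 and −0.43. None of 8 Wnt genes was higher (medians of 0.073 and −0.26) and 1, *Sfrp2*, was lower, from 7.33 to 1.08 CPM in control and from 2.19 to 0 in Dnmt1iECKO. The count of 0 gives no ratio for *Sfrp2* in Dnmt1iECKO. The upper bound of its log2 ratio there was −0.075, so a 1.5-fold difference is not resolved in that library. *Wif1*, *Notum*, *Tcf7* and *Axin2*, the other genes named by the rule in that list, had ratios between −0.92 and 0.46. Of the TEC kinases other than *Bmx*, *Tec* and *Btk* had enough UMIs and neither passed, at 5.94 CPM or less in every group.

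The vein and capillary list gave 1 of 7 higher and 3 lower, with medians of −0.72 and −0.18. *Slc6a2*, a marker of lung veins, was at 34.6 CPM in cells with none and 1.08 in cells with at least 2 in control, and at 94.7 and 7.62 in Dnmt1iECKO. *Car4*, of aerocytes, was at 833 and 140 CPM and at 561 and 154. *Vwf*, which large vessels of both kinds express, was the higher gene, with ratios of 1.53 and 1.24, and *Gpihbp1* differed little (0.10 and 0.15).

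Of the 5843 genes with at least 50 UMIs in the cells with at least 2 of both libraries, *Mecom* ranked 11 and *Fbln5* 18 by the smaller of the ratios, followed by *Efnb2* at 77, *Gja4* at 103, *Sema3g* at 105 and *Eln* at 583. The ranking did not leave out *Gja5*, *Bmx* and *Dkk2*, which the grouping itself places ahead of these members. The leading genes that are not members were *Esr2*, *Pde1c*, *Thsd7a*, *Stk32a*, *Slc45a4*, *Atp13a3*, *Cytl1*, *Pdlim3*, *Adgrg6* and *Cxcl12*. *Esr2*, an estrogen receptor gene, was at 0.281 and 36.9 CPM in control, and at 0.383 and 40.3 in Dnmt1iECKO. *Thsd7a* was at 16.1 and 228 CPM and at 28.3 and 370. Over the 26 cluster profiles, the genes whose pattern was most like the mean of the members among 12370 were *Sulf1* (r = 0.94), *Gata6* (0.93), *Pde1c* (0.91), *Eva1c* (0.91), *Afap1l2* (0.89), *Prdm16* (0.89), *Atoh8* (0.88), *Cdc42ep3* (0.88), *Bmp4* (0.88) and *1010001N08Rik* (0.87). *Pde1c* was on both lists.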

How the data were processed

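Per the labels and the methods, the authors ran Cell Ranger on mm10. The deposited values are UMI counts per gene and cell of called cells, without normalization. The members and lists were chosen with earlier results of these data known. Cells with over 10% mitochondrial counts or under 500 genes were removed, and doublets were the top Scrublet scores at 0.4% per 1000 cells (scanpy 1.11.5), in place of the methods' DoubletFinder. Clusters were found in Seurat 5.3.0 (R 4.3.3) by anchor integration with 2000 variable genes without the members, *Dnmt1* and the immune genes the study tested, 30 components and resolution 0.5. A cluster was named from 3 or more markers at a log2 fold of 1 or more in 10% of its cells. It was called endothelial if not named for another lineage, with *Cdh5* at 25% or more of the mean level and other-lineage markers in at most 50% of its cells. The naming thresholds were chosen with the clusters in view. Counts were summed per group and library in Python 3.11.15 with scipy 1.17.1. Levels have exact Poisson intervals, ratios the exact conditional interval and shares exact Clopper-Pearson intervals, while the limit given for a count of 0 is 3 counts of the total. Genes needed 100 UMIs in a comparison, and 20 in small groups and lists. Named genes were the members, the 3 highest and 2 lowest of each list, the 10 leading genes and the 10 most similar profiles. The calculation was tested on simulated data. Alternatives were other cell filters, doublet rates, gates, depths, size factors, per-cell means and clusterings.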

Additional observations from a re-analysis of the deposited data

How the results depend on the processing

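Of 53 recalculated summary values, 48 stayed close to the main value and 5 moved. The log2 ratio of shares of cells with at least 2 grouping genes was 1.93 for cells with all 3, which rests on 6 and 10 cells. The count of members higher in Dnmt1iECKO over all ECs, 5 of 9, became 8 without other lineages, 8 with the mean of CPM over single cells and 8 with the artery-like and vein-like clusters also left out, a setting chosen after seeing the data. In the artery-like cluster the count, also 5 of 9, became 8 with the mean of CPM over single cells and stayed at 5 without the highest cell of each library, both chosen after seeing the data. In cells with at least 2 against none, 6 of 6 members stayed higher in both libraries under all settings except doublets at 0.8% per 1000 cells, where the count was 5. With clusters at other resolutions, with members kept or without integration, the artery-like cluster was the highest for 7 or 8 of the 9 members, and for 6 with classes by markers. Among 183 ratios of single members, 115 stayed inside the interval of the main value, 57 moved out of it, and 11 whose interval excluded 0 changed sign, as did 8 of the others, whose interval included 0. *Gja4* over all ECs became 0.037 without other lineages, 0.00020 with the mean over cells and 0.070 without artery-like and vein-like cells. *Sema3g* became 0.059 with both *Cdh5* and *Pecam1*, 0.046 without cells with *Epcam*, *Cspg4* or *Myh11*, 0.075 without other lineages, 0.041 thinned, 0.15 with the mean over cells, and 0.044 and 0.14 without artery-like and without artery-like and vein-like cells. *Mecom* in cells with at least 2 became −0.045 when thinned. Apart from the construction of each setting, the cause was not tested. No paired analysis was possible because each group holds 1 library and the groups share fewer than 2 replicate numbers. The depth limits *Dkk2* most, with 20 and 33 UMIs in the artery-like cells.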
